A study of Mus musculus with 4 samples.

Results

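The striated muscle myosin heavy chains are the 9 genes Myh1, Myh2, Myh3, Myh4, Myh6, Myh7, Myh7b, Myh8 and Myh13, taken by symbol from a table of 55487 genes. All 9 had at least 1 count, and 8 had enough counts to be tested between the ages, with Myh6 left out by the filter on low counts. Whole mammary fat pad (MFP) of c57b/6j mice was sequenced as ribosomal-RNA-depleted total RNA with a strand-marking kit. There were 2 aged samples, from mice of 14 months, and 2 young samples, from mice of 8 weeks, labelled as biological replicates, and the labels name no treatment or transgene and do not give the sex of the mice. The comparison asks how the MFP differs between the ages. Whether 1 fat pad or several made up a library is not given in the sources used here, so that p-values measure only the spread between these 4 samples.

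Total counts per library ran from 68803304 to 98402403, and 3 counts equal 0.0337 to 0.0407 CPM (counts per 1000000 counts of the library, whose size was scaled by the trimmed mean of M-values). Spearman correlations between libraries ran from 0.933 to 0.982, and the 3 that involve young replicate 1 were the lowest (at most 0.949). Adipocyte markers (Adipoq, Plin1, Fabp4 and 5 others) summed to 10765 to 18025 CPM and were present in every library, as were the mammary epithelial markers (Krt5, Krt14, Epcam and 4 others), at 605.8 to 1295 CPM. Aged replicate 1 stood apart for several myosin heavy chains, and the differences between the ages are therefore given below with and without it where they change. In bulk tissue, fewer cells of a type and less RNA per cell cannot be told apart.

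Myosin heavy chains are the motor proteins of the thick filament, and each muscle fibre is typed by the heavy chain it makes. In rodent limb and trunk muscle, Myh4 (type IIB) marks the fastest glycolytic fibres, Myh1 (type IIX) and Myh2 (type IIA) mark fast fibres with rising oxidative capacity, and Myh7 (type I, also the beta chain of the heart) marks slow fibres. Myh3 and Myh8 are the embryonic and perinatal chains, Myh6 is the alpha chain of the heart, Myh13 is the extraocular chain, and Myh7b is an ancient slow-type chain with a microRNA in an intron.

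In the genome, 6 of the genes lie in a row on chromosome 11, on the plus strand of GRCm38 (GENCODE M21 models): Myh3 at chr11:67078300-67102291, Myh2 at chr11:67171027-67197517, Myh1 at chr11:67200052-67224575, Myh4 at chr11:67238029-67260446, Myh8 at chr11:67277124-67308634 and Myh13 at chr11:67321658-67371586. Myh2 and Myh1 are separated by 2.54 kb, and Myh1 and Myh4 by 13.5 kb. The cardiac pair Myh6 (chr14:54941921-54966927) and Myh7 (chr14:54970684-54994626) lies on the minus strand of chromosome 14 with 3.76 kb between the genes, and Myh7b lies alone on chromosome 2 (chr2:155611212-155634307).

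The adult fast chains are closely similar in sequence. Coding sequences of Myh1 and Myh2 were 91.0% identical, Myh1 and Myh4 90.2%, Myh2 and Myh4 88.2%, and Myh6 and Myh7 91.7%. A coding stretch rich in differences is shown for the genes on which the results turn, 60 bases each from the GENCODE M21 transcripts, with capitals at the 24 positions where the 3 fast chains are not all the same.
Myh4 (coding bases 3832 to 3891): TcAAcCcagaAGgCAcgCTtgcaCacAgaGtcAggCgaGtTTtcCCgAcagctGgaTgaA
Myh1 (coding bases 3841 to 3900): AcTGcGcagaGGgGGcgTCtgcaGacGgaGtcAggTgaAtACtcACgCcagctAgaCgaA
Myh2 (coding bases 3841 to 3900): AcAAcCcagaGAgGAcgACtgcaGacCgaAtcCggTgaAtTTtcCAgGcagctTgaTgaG

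For the slow and cardiac pair, capitals mark the 27 positions of 60 that differ.
Myh7 (coding bases 3220 to 3279): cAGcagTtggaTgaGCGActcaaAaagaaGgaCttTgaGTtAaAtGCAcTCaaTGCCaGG
Myh6 (coding bases 3226 to 3285): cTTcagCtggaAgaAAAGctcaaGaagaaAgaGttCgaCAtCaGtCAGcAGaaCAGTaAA

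Of all 50-base windows of the Myh2 transcript, 26.9% were also found letter for letter in another member, against 26.7% for Myh1, 18.9% for Myh4 and 0% for Myh7b. At 100 bases the shares fell to 9.17% for Myh2, 9.73% for Myh1 and 3.85% for Myh4. How the counting treated reads that match several genes is not given in the sources used here, so low counts of a member beside a very abundant relative are uncertain.

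The starts of Myh4 and Myh2 are shown because Myh2 was the member of this cluster least like Myh4 over the libraries. The 100 bases before the RefSeq start (GRCm38.p6, plus strand) carry capitals on matches to TATAAA and to CANNTG, the letters of a TATA box and an E-box.
Myh4 (chr11:67237712-67237811): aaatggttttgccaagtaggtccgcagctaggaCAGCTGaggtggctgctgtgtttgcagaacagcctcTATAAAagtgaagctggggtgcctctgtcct
Myh2 (chr11:67170927-67171026): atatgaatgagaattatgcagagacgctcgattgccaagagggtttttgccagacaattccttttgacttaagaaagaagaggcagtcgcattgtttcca

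Both strands of 250 bases were searched, in which Myh4 held 3 matches to TATAAA and 2 to CANNTG and Myh2 held none of either. Among 32851 RefSeq promoters, 12.4% held TATAAA and 66.2% held CANNTG in the same window. A match is a description of letters only.

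Myh4 was by far the most abundant heavy chain in every library. Its counts were 573379 and 1459815 in aged replicates 1 and 2, and 173271 and 257636 in young replicates 1 and 2, or 7012 and 16393 CPM against 2114 and 3491 CPM. Both aged libraries lay above both young libraries, with aged replicate 2 the highest. The mean was 11702 ± 6633 CPM (SD, n = 2) in aged MFP and 2802 ± 974.1 CPM (SD, n = 2) in young MFP. In edgeR's quasi-likelihood test the log2 fold change, aged over young, was 2.06 ± 0.65 (SE), with an adjusted p of 0.451 (unadjusted 0.0321), so that the difference did not pass the threshold of 0.05. DESeq2 gave the same size, 2.06 ± 0.53, with an adjusted p of 0.00529, which did pass. In edgeR the log2 fold change was 2.54 without aged replicate 1 and 1.32 without aged replicate 2, the highest library.

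Myh1, the type IIX chain, varied widely within each age. It had 92396 and 17193 counts in the aged libraries and 12216 and 147 in the young libraries, or 1130, 193.1, 149.0 and 1.99 CPM. The aged libraries were again the higher pair, but aged replicate 2 lay just above young replicate 1, and the young libraries differed 74.8-fold from each other. The log2 fold change was 3.13 ± 2.07 (SE; adjusted p = 0.574 in edgeR and 0.564 in DESeq2), and it was 1.34 without aged replicate 1 and 8.37 without young replicate 1. An antisense gene, Myhas, overlaps 515 exonic bases of Myh1 and had 233 to 736 counts. Whether the counting used strand is not given in the sources used here.

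Myh2, the type IIA chain, was found almost wholly in 1 library. Its counts were 47255 in aged replicate 1, 192 in aged replicate 2, and 94 and 78 in young replicates 1 and 2, equal to 577.9, 2.16, 1.15 and 1.06 CPM. Aged replicate 1 held 99.2% of all Myh2 counts and lay 268.0-fold above the next library by CPM. The other 3 libraries all lay near 0, with aged replicate 2 the highest of them. The log2 fold change between the ages was 8.04 ± 2.82 (SE), with an adjusted p of 0.466 in edgeR (unadjusted 0.0445) and of 0.0184 in DESeq2. Without aged replicate 1 it was 0.96 in edgeR, with an adjusted p of 0.976. The opposite-strand gene 9430073C21Rik, which overlaps 237 exonic bases of Myh2, had 3 to 18 counts.

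The slow chain Myh7 followed the pattern of Myh2 at a lower level. It had 1986 counts in aged replicate 1, 24 in aged replicate 2, 52 in young replicate 1 and 5 in young replicate 2, or 24.3, 0.27, 0.634 and 0.0678 CPM. Aged replicate 1 held 96.1% of the counts and lay 38.3-fold above the next library, while aged replicate 2 lay between the young libraries. The log2 fold change was 5.11 ± 2.39 (SE; adjusted p = 0.518 in edgeR, 0.275 in DESeq2) and turned to -0.40 without aged replicate 1. The antisense transcript Mhrt and 2 other antisense genes that overlap exons of Myh7 had 0 counts.

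Myh6 and Myh7b were scarce. Myh6 had 27, 6, 1 and 0 counts in aged replicates 1 and 2 and young replicates 1 and 2. The 33 aged counts against 1 young count gave a depth-adjusted ratio of 30.1, with an exact interval of 5.04 to 1224 that covers counting error only and rests mainly on aged replicate 1. In that library Myh7 had 1986 counts beside the 27 of Myh6. Myh7b had 61, 39, 11 and 33 counts (0.746, 0.438, 0.134 and 0.447 CPM), so that young replicate 2 lay above aged replicate 2. Its log2 fold change was 1.03 ± 0.72 (SE; adjusted p = 0.586 in edgeR), or 0.58 without aged replicate 1 and 2.14 without young replicate 2. The gene overlaps 37 exonic bases of Trpc4ap, which had 9083 to 11787 counts. The host-gene microRNAs Mir208a, Mir208b and Mir499 had 0 counts in all 4 libraries, in a protocol not made for small RNA.

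The developmental chains were scarce, with at most 229 counts in any library. Myh3, the embryonic chain, had 135 and 34 counts in the aged libraries and 10 and 0 in the young libraries. It passed the filter on low counts through the aged libraries, and its log2 fold change of 3.99 ± 1.52 (SE; adjusted p = 0.485 in edgeR) depends on how a count of 0 is treated. It was 2.58 without aged replicate 1 and 9.37 without young replicate 1. The ratio of 169 aged to 10 young counts, adjusted for depth, was 15.4 (exact interval 8.18 to 32.7, counting error only). Myh8, the perinatal chain, went the other way in 1 library, with 58 and 86 aged counts against 6 and 229 young counts. Young replicate 2 was the highest and young replicate 1 the lowest of the 4. The log2 fold change of Myh8 was -0.92 ± 1.56 (SE; adjusted p = 0.816 in edgeR) and became 3.50 without young replicate 2 (adjusted p = 0.0697). The extraocular chain Myh13 had 50 and 47 counts against 29 and 1, a log2 fold change of 1.61 ± 1.22 (SE; adjusted p = 0.606 in edgeR). It was 1.49 without aged replicate 1, 0.70 without young replicate 2 and 5.24 without young replicate 1.

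**Figure D1:**
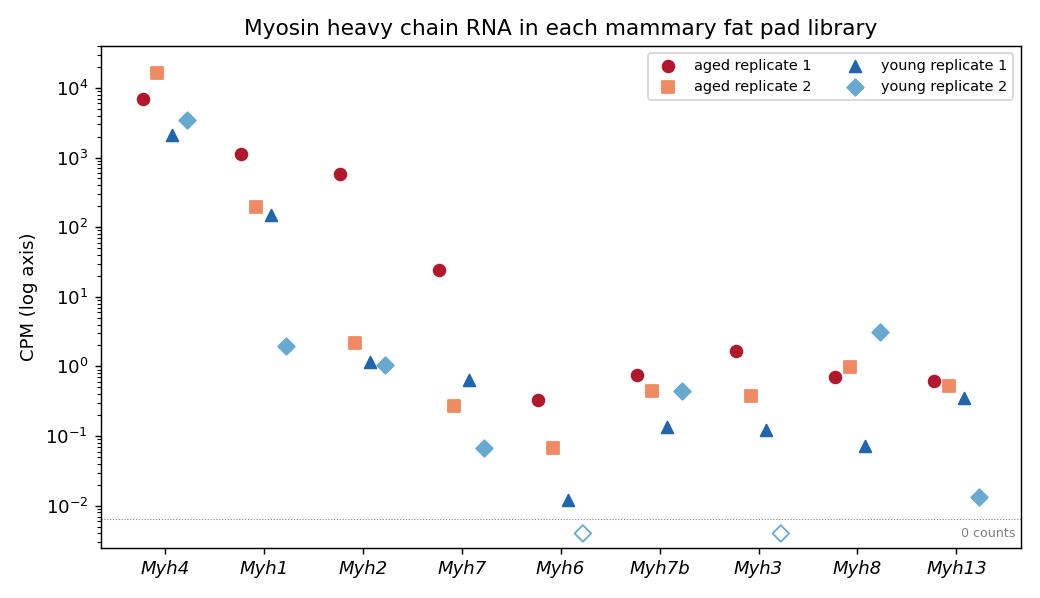
CPM of each of the 9 heavy chains (log axis) in the 4 libraries, 1 point per library, with open symbols below the dotted line for 0 counts. Myh4 is at 2114 CPM or more in every library, whereas Myh2 reaches 577.9 CPM in aged replicate 1 and at most 2.16 CPM in the others.

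Across the family, no member passed the adjusted threshold in edgeR, where 0% of the 22485 genes tested did. At an unadjusted p under 0.05, Myh4 and Myh2 were higher in aged MFP, beside 7.24% of all genes tested that were higher at that level. DESeq2 called the same 2 members higher, beside 2.04% of the 34805 genes for which it gave a p-value (2.49% in either direction). These 34805 include genes left out by edgeR's filter on low counts, a wider set than the genes tested in edgeR. The same holds wherever 2.04% is given below. The likelihood ratio test of edgeR also called these 2 members higher, beside 1.86% of genes tested. Both aged libraries lay above both young libraries for 6 of the 9 members (Myh1, Myh2, Myh3, Myh4, Myh6 and Myh13). Myh6 was not tested, and among the 8 members tested the number was 5, beside 23.3% of all genes tested. Of these, Myh3 passed the filter on low counts through the aged libraries, where it is high. For no member did both aged libraries lie below both young ones, beside 22.8% of all genes tested. Without aged replicate 1 the remaining aged library was above both young ones for 6 of 9 members, beside 32.7% of genes tested. Aged replicate 1 was the highest library for 6 of the 8 members tested, beside 20.9% of all genes tested. It was at least 10 times each other library for 10 genes, or 0.0445% of those tested, and among these Myh2 and Myh7 had the widest gaps. Genes left out by the filter on low counts were not searched. Among those was Myl2, with 7.64 CPM in aged replicate 1 against at most 0.0674 CPM in the others. Myoz2, a slow-fibre protein of the Z-disc, and the stretch-responsive Ankrd2 were also among the 10. So was the locus CT010467.1, at 8998 CPM in aged replicate 1 against 220.5 to 645.9 CPM in the others. The rest were Mir6236 (195.8 CPM in aged replicate 1 against 1.79 to 6.03 CPM in the others), Igfn1, Gm24187, Cfap44 and Gm24270. These non-member genes were picked with their values in view, and the part of CT010467.1 in the other differences was not tested.

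**Figure D2:**
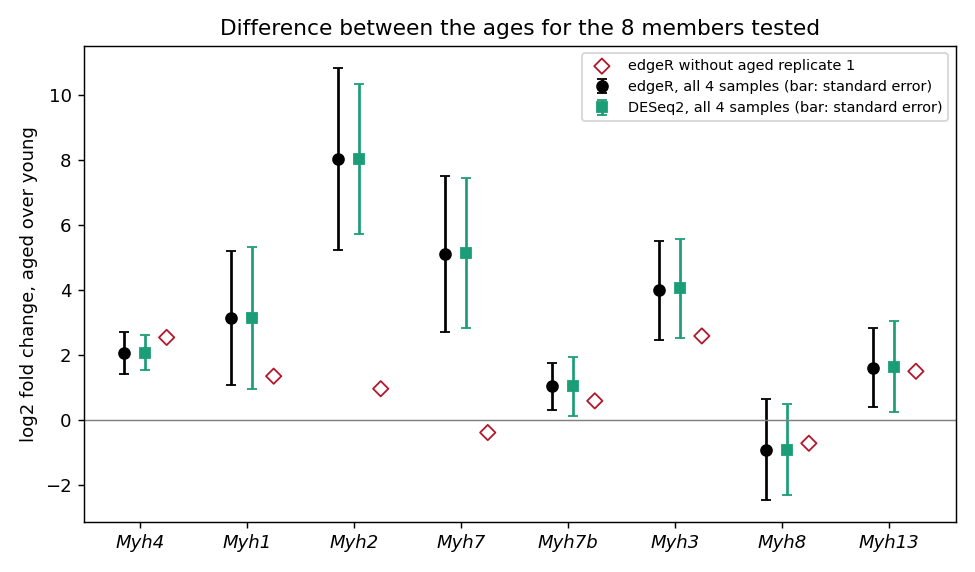
Log2 fold change, aged over young, of the 8 members tested, from edgeR (circles) and DESeq2 (squares) with standard errors, and from edgeR without aged replicate 1 (open diamonds). Without this library Myh4 goes from 2.06 to 2.54, Myh2 from 8.04 to 0.96 and Myh7 from 5.11 to -0.40.

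Next, each isoform's share of the family was taken within a library, from counts per kb of exon, so that it does not depend on library scaling. Myh4 made up 81.6% of the family in aged replicate 1, 98.9% in aged replicate 2, 93.7% in young replicate 1 and 99.9% in young replicate 2. Each young library lay above an aged library, and the ages overlapped. The mean share of Myh4 was 90.3% ± 12.2 (SD, n = 2) in aged and 96.8% ± 4.39 (SD, n = 2) in young MFP, a difference of -6.51 percentage points (two-sided exact permutation p = 0.667, where 0.333 is the smallest that 2 against 2 samples allow). The difference turned to 2.11 points without aged replicate 1 and was -15.1 points without aged replicate 2.

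Myh1 was second in every library per kb of exon union. By counts alone, Myh8 was second in young replicate 2 (229 against 147 for Myh1). The rank in that library depends on the length used, since the exon union of Myh8 is 11.772 kb. The longest transcripts of Myh8 and Myh1 are of similar length (6149 and 6081 bases). The share of Myh1 per kb was 12.5% in aged replicate 1, 1.10% in aged replicate 2, 6.25% in young replicate 1 and 0.0540% in young replicate 2. The order therefore alternated between the ages (exact permutation p = 0.667), and the difference of 3.63 points, aged minus young, turned to -2.05 without aged replicate 1. Myh2 held 5.67% of the family in aged replicate 1 and 0.0110% to 0.0428% in the other libraries, with the lowest share in aged replicate 2, so that the difference of 2.81 points became -0.02 without aged replicate 1. Counted without division by length, Myh2 was 6.61% of the members' counts in aged replicate 1 (Wilson 95% interval 6.55% to 6.66%, counting error only) and 0.0130% in aged replicate 2 (0.0113% to 0.0150%).

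Grouped by role, the adult fast chains Myh4, Myh1 and Myh2 together were 99.76% of the family per kb in aged replicate 1 and 99.94% or more in the other libraries. The slow and cardiac chains reached 0.201% in aged replicate 1, 0.0201% in young replicate 1, and 0.001498% and 0.00135% in aged replicate 2 and young replicate 2. The developmental chains Myh3 and Myh8 were at most 0.0454%, in young replicate 2. Myh1 and Myh2 together were 18.1% and 1.11% of the family in aged replicates 1 and 2, and 6.30% and 0.0794% in young replicates 1 and 2. Expressed as an effective number of isoforms (the exponential of the Shannon entropy of the shares), the family counted 1.83, 1.06, 1.27 and 1.01 isoforms in aged replicates 1 and 2 and young replicates 1 and 2. For none of the 9 members did the shares of the ages separate.

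**Figure D3:**
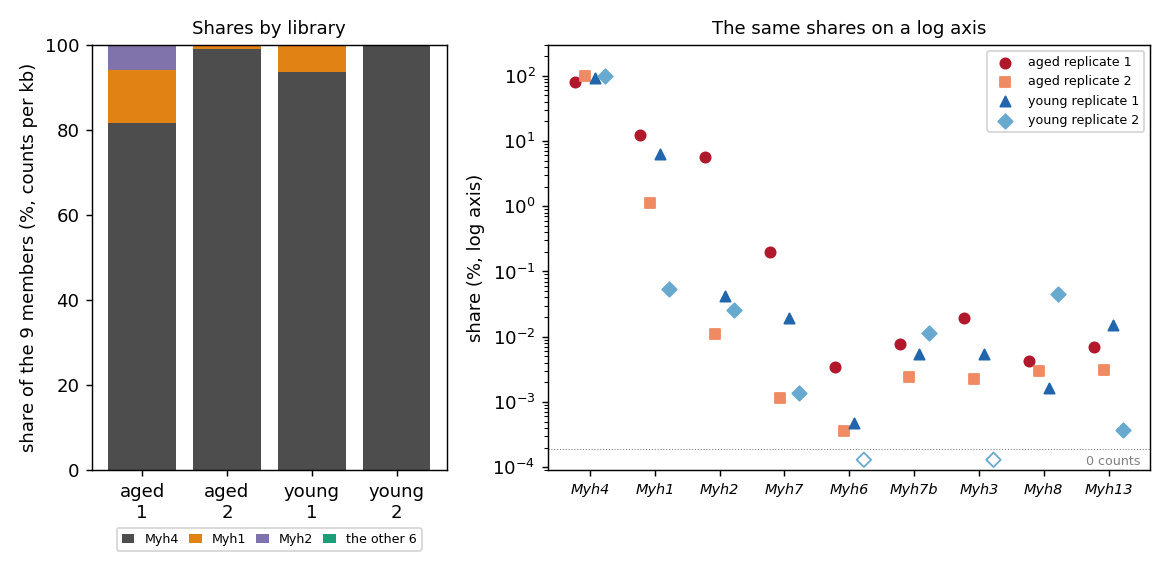
Share of each isoform in the family per library, from counts per kb of exon, as stacked bars from 0 to 100% (left) and on a log axis with 1 point per library (right, open symbols for 0 counts). Myh4 fills 81.6% of the bar in aged replicate 1 and 93.7% or more in the others, and Myh2 is visible only in aged replicate 1.

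Summed over the 9 members, the family took 0.852% and 1.501% of all counts in aged MFP, against 0.239% and 0.375% in young MFP. Most of this was Myh4, since the other 8 members summed to 1736, 197.9, 151.5 and 6.68 CPM in aged replicates 1 and 2 and young replicates 1 and 2. Other muscle genes had the same order of the ages. The geometric mean of 12 sarcomere and muscle genes (Acta1, Ttn, Neb, Ckm, Ryr1 and 7 others) was 854.9 and 1107 CPM in aged and 189.8 and 215.9 CPM in young MFP. All 12 were higher in both aged libraries, beside 23.3% of all genes tested. DESeq2 called 11 of them higher, beside 2.04% of its genes, and edgeR 0. Within this set, the Z-disc protein Actn2 had 109.8 and 16.9 against 12.2 and 1.75 CPM and was the only 1 of the 12 highest in aged replicate 1. Xirp2 had 816.1 and 1335 against 158.5 and 230.3 CPM.

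When each heavy chain was divided by this reference in its own library, no member had both aged libraries above both young ones (0 of 9, beside 0.485% of all genes tested). The reference is itself 4.81-fold higher in aged MFP and division by it leaves this order in few genes, so that the count is near the background and shows nothing particular to the members. The log2 ratio of Myh4 to the reference was 3.04 and 3.89 with age, against 3.48 and 4.01 in young MFP. These overlap, and the mean difference was -0.28, or 0.14 without aged replicate 1. It was 0.24 against 10 fast-fibre genes and 0.26 against 9 slow-fibre genes. The log2 ratio of Myh2 was -0.57 in aged replicate 1, -9.00 in aged replicate 2, and -7.37 and -7.67 in the young libraries, so that aged replicate 2 was the lowest of the 4, and the mean difference of 2.74 turned to -1.48 without aged replicate 1. Myh7 gave -5.14, -12.00, -8.23 and -11.64 on the same scale, again with the aged libraries at both ends, and 1.36 turned to -2.07 without aged replicate 1.

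**Figure D4:**
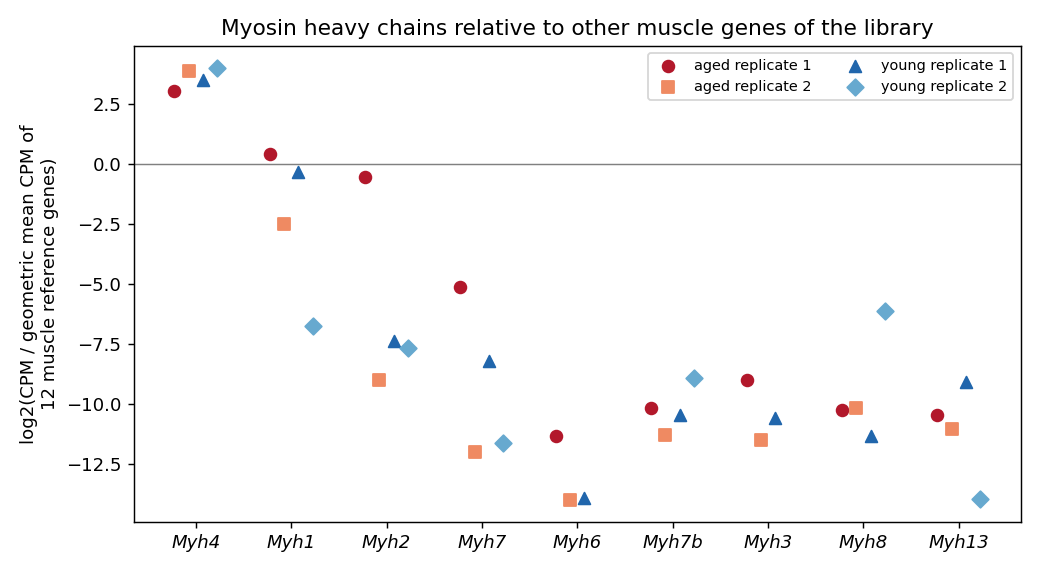
Log2 ratio of each heavy chain's CPM to the geometric mean CPM of 12 muscle reference genes in the same library, 1 point per library (members with 0 counts are not drawn). For Myh4 the ages overlap between 3.04 and 4.01, and for Myh2 the aged libraries lie at -0.57 and -9.00.

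The partners of the heavy chains in the sarcomere were then read for fast and slow fibre type. The 10 fast-fibre genes ordered the libraries much as Myh4 did. All 10 were higher in both aged libraries, beside 23.3% of all genes tested, and highest in aged replicate 2. None passed the adjusted threshold in edgeR, where all 10 were higher at an unadjusted p under 0.05, beside 7.24% of genes tested. DESeq2 called 6 higher, beside 2.04% of its genes. Their median log2 fold change was 1.96, against -0.04 over all genes tested. Tnnt3, the fast troponin T, had 1040 and 1971 CPM in aged and 266.6 and 409.1 CPM in young MFP. Actn3, the fast-fibre alpha-actinin, had 1436 and 3066 against 403.2 and 612.9 CPM, and Atp2a1, the fast calcium pump, 4694 and 8060 against 1197 and 1546 CPM. The others were Tnni2, Tnnc2, Pvalb, Casq1, Mybpc2, Myl1 and Mylpf.

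The slow-fibre genes ordered the aged libraries as Myh7 did. Of the 9 tested, 8 were higher in aged replicate 1 than in aged replicate 2, with a median log2 difference of 2.45 between the aged libraries, against -0.93 for the fast-fibre genes. Myl2, the slow regulatory light chain, had 625 counts in aged replicate 1 and 6, 2 and 2 in aged replicate 2 and the young libraries. Tnnt1, the slow troponin T, had 332, 20, 63 and 14 counts, with young replicate 1 second as for Myh7. Tnni1, Tnnc1, Myl3 and Casq2 were likewise highest in aged replicate 1. Atp2a2 and Tpm3, which many non-muscle cells also make, differed little between the aged libraries (log2 -0.05 and 0.18).

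Between the ages, 5 of the 9 slow-fibre genes tested had both aged libraries above both young libraries, beside 23.3% of all genes tested. These were Tnni1, Atp2a2, Casq2, Myoz2 and Csrp3, and Csrp3 passed the filter on low counts through the aged libraries, where it is high. Tpm3 had both below, beside 22.8%. None of the 9 passed in edgeR. DESeq2 called Myoz2 and Csrp3 among them, beside 2.04% of its genes that were higher. Myoz2 had 714 and 69 counts in aged and 15 and 3 in young MFP, and Csrp3, a Z-disc protein of slow fibres and heart, had 788 and 212 against 6 and 0. Myl2 was not tested by edgeR, and its adjusted p in DESeq2 was 0.00153. That value rests almost wholly on aged replicate 1, with 625 counts against 6 in aged replicate 2 and 2 in each young library. The ratio of the geometric means of slow-fibre to fast-fibre genes was 0.0178 in aged replicate 1, 0.00751 in young replicate 1, 0.00369 in young replicate 2 and 0.00151 in aged replicate 2.

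**Figure D5:**
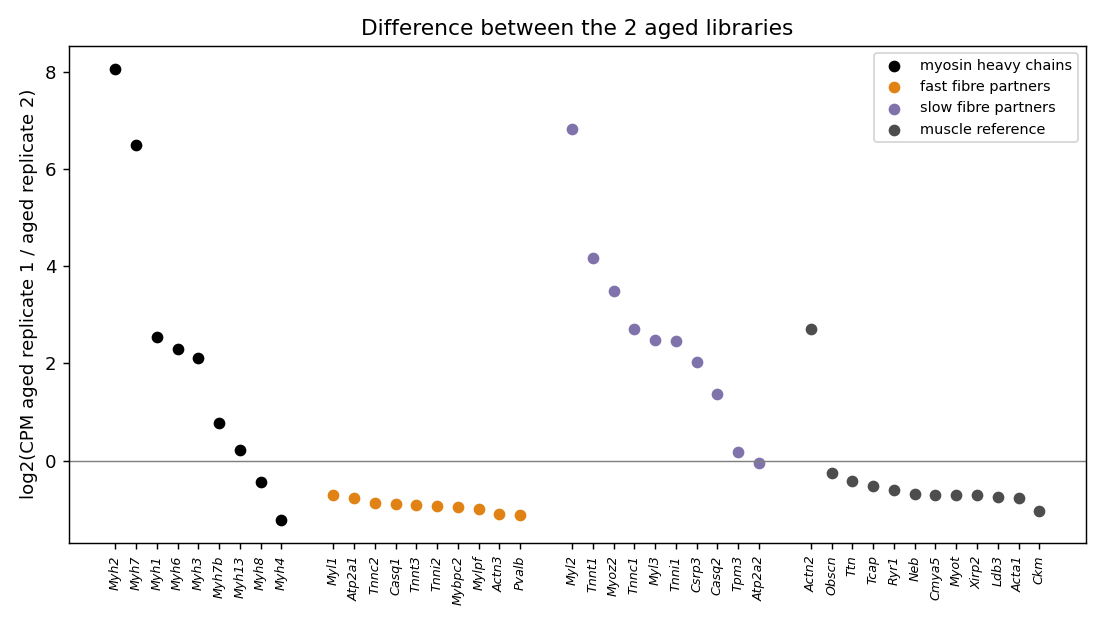
Log2 ratio of the 2 aged libraries (CPM of aged replicate 1 over aged replicate 2) for the heavy chains, fast-fibre genes, slow-fibre genes and muscle reference genes, 1 point per gene, with no replicate of this difference. All 10 fast-fibre genes and Myh4 lie below 0, whereas Myh2, Myh7 and 9 of 10 slow-fibre genes lie above 0, up to 8.07 for Myh2.

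Among the myosin light chains, the fast essential and regulatory chains Myl1 and Mylpf had log2 fold changes of 1.04 and 1.31, both with the aged libraries above the young ones. The kinase of skeletal light chains, Mylk2, had 95.8 and 156.7 CPM against 20.6 and 24.0 CPM, a log2 fold change of 2.50 ± 0.30 (SE), which DESeq2 called and edgeR did not (adjusted p = 0.360). The slow and cardiac ventricular chain Myl3 had 369 and 72 against 74 and 111 counts, with overlap. The embryonic and atrial chain Myl4 had a log2 fold change of 0.57, and the atrial chain Myl7 had 0, 0, 1 and 1 counts.

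Of 7 thick filament proteins, 6 were tested and 5 had both aged libraries above both young ones, beside 23.3% of all genes tested, with Mybph overlapping. DESeq2 called 4 of them higher, beside 2.04% of its genes, and edgeR none. Mybpc1, the slow-type myosin binding protein C, had 228.4 and 97.3 CPM against 30.2 and 4.24 CPM, a log2 fold change of 3.24 ± 1.10 (SE; adjusted p = 0.462 in edgeR, 0.0118 in DESeq2). It was highest in aged replicate 1, whereas Mybpc2, the fast-type protein, was highest in aged replicate 2 (739.8 and 1441 against 170.3 and 286.5 CPM). Mybpc1 thus ordered the aged libraries as Myh2 did, and Mybpc2 as Myh4 did.

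The chaperones and ubiquitin ligases that fold and clear myosin were mostly higher in aged MFP. Of 7 genes, 6 had both aged libraries above both young ones, beside 23.3% of all genes tested, and all 7 were highest in aged replicate 2. DESeq2 called 5 higher, beside 2.04% of its genes. Trim54 had 28.9 and 56.6 against 5.26 and 7.63 CPM (log2 fold change 2.73) and Trim63 had 13.3 and 31.2 against 3.81 and 4.19 CPM (2.48), both ligases of the sarcomere. Hsp90aa1, which is made in all cells, was at 115.6 to 125.6 CPM in every library.

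Of 12 regulators of fibre type, 10 had both aged libraries above both young ones, beside 23.3% of all genes tested. DESeq2 called 7 higher, beside 2.04% of its genes, whereas edgeR called none. Vgll2, a cofactor of muscle gene transcription, had 8.22 and 9.06 against 0.854 and 1.25 CPM, a log2 fold change of 3.04. Prox1, known in slow fibres and also in lymphatic endothelium, and Nfatc1 overlapped between the ages.

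Genes of developing or regenerating muscle were few. Of 10, 5 had enough counts to be tested and all 5 were higher in both aged libraries, beside 23.3% of all genes tested. DESeq2 called 2 higher, beside 2.04% of its genes, and edgeR none. Cdh15, the cadherin of satellite cells and myoblasts, had 440 and 747 against 50 and 68 counts, a log2 fold change of 3.17, and Myod1 had a log2 fold change of 2.85. The fusion gene Mymx had 0 counts in every library, Mymk 0, 3, 2 and 0, and the fetal receptor subunit Chrng 1, 0, 0 and 2. Chrnd, also of this list, had 7 and 21 aged against 0 and 1 young counts. How these genes relate to Myh3 and Myh8, which ranged from 0 to 229 counts, was not tested.

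Genes of heart muscle did not follow the heavy chains. Nppa and Nppb, the natriuretic peptides, had 0 counts in all libraries. Actc1, the cardiac actin, had 71 and 171 aged against 655 and 301 young counts, a log2 fold change of -2.11 ± 0.59 (SE; adjusted p = 0.421 in edgeR, 0.0175 in DESeq2). Of the 8 cardiac genes, 4 were tested, and 1 had both aged libraries above and 2 had both below the young ones, beside 23.3% and 22.8% of all genes tested. Ryr2, the cardiac calcium release channel, overlapped at 2.09 and 1.61 against 4.77 and 2.09 CPM. The heavy chains of non-muscle and smooth muscle cells were also read beside the family. Myh9, Myh10 and Myh11 overlapped between the ages (log2 fold changes of -0.33, 0.22 and 0.40), and Myh14 had both aged libraries above the young ones (0.67).

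By the smallest distance between centred log2 CPM over the 4 libraries, the 5 genes most like Myh4 among 16555 were Prkag3, Mstn, Tuba8, Actn3 and Ckm, at distances of 0.0989, 0.101, 0.152, 0.158 and 0.158. Prkag3 is the AMP-kinase subunit of fast muscle and had 19.9 and 51.1 CPM in aged and 6.27 and 10.1 CPM in young MFP. Mstn, the secreted inhibitor of muscle growth, had 7.58 and 18.9 against 2.21 and 3.69 CPM. The other heavy chains lay farther away, from 1.74 for Myh7b to 6.11 for Myh7, 6.23 for Myh1 and 7.24 for Myh2. The points share their 4 libraries, and the distance is a description only.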

How the data were processed

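The authors deposited 1 table of raw counts per gene. Per the labels, libraries were made from total RNA after ribosomal RNA depletion. The submitters' processing notes name featureCounts, R 3.6.1 and the builds GRCm38 and hg38. The aligner, the annotation, the strand setting and the handling of multi-mapped reads are not given in the sources used here. Columns were matched to samples by title. The main test was edgeR 4.0.16 (R 4.3.3), the quasi-likelihood test with trimmed-mean scaling, filterByExpr (22485 of 55487 genes kept) and age as the only term. P-values were two-sided and adjusted by Benjamini-Hochberg over all genes tested, with a threshold of 0.05. DESeq2 1.42.0, which the study names, was an alternative, beside other scalings, filters and tests, a replicate block and leaving out each sample. The scripts were tested on simulated counts. Shares used counts per kb of the exon union, which is long for Myh7 (8.616 kb) and Myh8 (11.772 kb) beside their longest transcripts (6230 and 6149 bases). With the longest transcript as the length, the difference in share, aged minus young, was -0.0382 in place of -0.0199 points for Myh8. For Myh7 it was 0.121 in place of 0.0888 points. Wilson and exact intervals cover counting error only, and the floor was 3 counts.

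The 9 members and all gene lists were chosen with earlier results of these data known, so that no list is independent evidence. Named genes were the members, the light chains, the fast-fibre and slow-fibre genes, the 2 largest changes of other lists, genes overlapping a member, and the 5 genes most like Myh4. A few others are named as examples. A gene that this rule names among the regulators of fibre type is not reported here. Gene models and coding sequences came from GENCODE M21 and promoters from RefSeq (GRCm38.p6).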

Additional observations from a re-analysis of the deposited data

How the results depend on the processing

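The number of genes past the threshold was 0 in edgeR's quasi-likelihood test (2371 at an unadjusted p under 0.05), 490 in its likelihood ratio test and 865 in DESeq2. Members past it numbered 0, 2 and 2 in these tests. Both were Myh2 (log2 fold change 8.04 in each, adjusted p = 0.035 in the likelihood ratio test and 0.0184 in DESeq2) and Myh4 (2.06 in each, 0.0193 and 0.00529). Other scalings, filters and leaving out any sample gave 0 genes and 0 members. Over the samples left out, the log2 fold change ran from 1.32 to 2.54 for Myh4, 1.34 to 8.37 for Myh1, 0.96 to 9.03 for Myh2, -0.40 to 7.47 for Myh7, -1.89 to 3.50 for Myh8, 2.58 to 9.37 for Myh3, 0.40 to 2.14 for Myh7b and 0.70 to 5.24 for Myh13, so that of these fold changes only those of Myh7 and Myh8 changed sign. The difference in the share of Myh4 ran from -15.1 to 2.11 points and that of Myh1 from -2.05 to 9.30 points, both changing sign without aged replicate 1. With 1 sample left out, 6 to 8 of the 9 members had every aged library above every young one. The share of all genes tested with that order was then 32.7% to 41.4%, against 23.3% with all 4 samples. The replicate numbers did not pair the samples (r = -0.482 over 22485 genes). With the number as a replicate block 0 genes passed and Myh8 was 0.61 in place of -0.92. With the crossed pairing, added after seeing the data, 0 genes passed, and Myh8 was 0.40. Divided by the muscle reference, 0 members in place of 6 had both aged libraries above both young ones, and the ratio of Myh4 of -0.28 moved to 0.24 and 0.26 with fast-fibre and slow-fibre genes as the reference. The causes were not tested. With 2 samples an age, 1 library decides Myh2 and Myh7. The counts of 0 for Myh3 and Myh6 in young replicate 2 allow up to 3 counts (0.0407 CPM).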

Other observations

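Other cell types of the fat pad were read from marker lists beside the heavy chains. All 8 adipocyte markers had both aged libraries above both young ones, beside 23.3% of all genes tested, with aged replicate 1 the highest for each. DESeq2 called 1 higher, beside 2.04% of its genes, and edgeR none. Some gaps were narrow, with Cidec at 541.2 CPM in aged replicate 2 against 539.9 in young replicate 2, and Plin1 at 1019 against 1007. Fabp4 and Lpl had log2 fold changes of 0.20 and 0.13. The 8 markers summed to 18025 and 13126 CPM in aged and 10765 and 10884 CPM in young MFP. Leptin (Lep) and adiponectin (Adipoq) differed most, with log2 fold changes of 1.20 ± 0.28 and 1.00 ± 0.28 (SE). Of 4 brown adipocyte genes, 3 had both aged libraries above and 1 had both below the young ones, beside 23.3% and 22.8% of all genes tested. The 4 genes summed to 107 and 131 against 80.8 and 87.0 CPM, and Elovl3 (log2 fold change 1.95) and Cox8b (0.88) differed most.

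Young replicate 1 had the lowest sums for mammary epithelium (605.8 CPM, against 1295 in young replicate 2 and 1070 and 1032 in aged MFP) and for smooth muscle (379.2 CPM, against 753.5 in young replicate 2 and 979.5 and 1302 in aged MFP). Krt5 and Krt14, keratins of the basal layer, had log2 fold changes of 1.36 and 1.22 with standard errors of 0.72 and 0.70. Of the 5 smooth muscle genes, Des, which striated muscle also makes, was the 1 with both aged libraries above both young ones (log2 fold change 2.31), beside 23.3% of all genes tested. Endothelial and Schwann cell markers overlapped between the ages in all 4 genes of each list (442.5 to 607.7 CPM and 179.1 to 241.6 CPM in sum, log2 fold changes of at most 0.46, for Sox10). Of 4 macrophage genes, 3 had both aged libraries above both young ones, beside 23.3% of all genes tested (184.1 and 201.6 against 123.8 and 130.2 CPM in sum). Mrc1 (log2 fold change 0.81) and Adgre1 (0.66) were among the 3. The part of these cell types in the heavy chain values was not tested.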
